A study of Mus musculus with 2 samples.

Results

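The mouse lincRNA loci of the array are intergenic stretches of the mouse genome that carry a numbered name with the prefix mouselincRNA, and most were measured on each genomic strand separately. They were selected by that prefix and by a name that ends in + or -, which gave 691 strands of 351 loci among the 59692 probes of the array that were normalized. There were 343 plus strands and 348 minus strands. Both strands were present for 340 loci, and 11 loci had 1 strand (3 plus and 8 minus). Each strand was measured by 1 probe in 1 spot, so the strands are the members described here and no member has a second probe that could check it. The sign is read here as the genomic strand of the RNA, since the files name the strand in no other way.

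Long intergenic noncoding RNAs (lincRNAs) are transcribed between protein-coding genes, are often spliced and polyadenylated like messenger RNA, and do not encode a protein. Most are found at low levels and in few tissues. Many mouse lincRNA loci were first recognised from chromatin marks of active promoters and transcribed bodies, which show that a stretch is transcribed but not which strand is read, and a probe to each strand answers that question. Whether these loci come from such a catalogue is not given in the sources used here. RNA from both strands of a locus can come from divergent promoters, from overlapping antisense transcripts or from low-level transcription of the region.

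Liver RNA of male C57BL/6 mice 10 to 12 weeks old was hybridized to 1 array per condition in a single colour (Cy3). The I/R array held RNA of liver after 70% partial hepatic ischemia for 1 h and reperfusion for 6 h, a surgical model in which blood flow to part of the liver is clamped and then restored. Its RNA was a mixture of 3 livers. The control array held liver RNA that the labels call control and that the study elsewhere calls sham liver, and whether it was a mixture is not stated. With 1 array per condition the spread between mice was not measured, no test of a difference was possible, and the condition, the array and its position on the slide cannot be told apart. In whole liver, fewer cells of a type and less RNA per cell cannot be told apart either. Of the marker genes listed for 7 liver cell types and of 20 well-known long noncoding RNAs, 0 could be named from the files, so the labelled tissue was not checked against its markers.

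Fewer of the lincRNA strands gave a signal than the other probes of the array. The scanner software called a signal positive and significant, here called detected, for 422 strands on both arrays (61.1%), against 80.0% of all probes. A stricter call, well above background, was met on both arrays by 272 strands (39.4%), against 62.3% of all probes. The mouse probes named for human lincRNA loci were close to the mouse loci on the same calls, with 60.8% detected and 38.5% well above background. For probes to lincRNA exons the shares were 75.9% and 54.9%, and for ultraconserved regions 57.2% and 35.3%. Both calls were also met by sequences designed to match nothing in the mouse. Of 1200 spots of 20 such negative probes, 35.2% were detected on both arrays and 11.8% met the stricter call on both.

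The stricter call was met by 331 strands on the control array (47.9%) and by 282 on the I/R array (40.8%). Among all probes it was met by 69.5% and 64.3%, so more probes of any kind passed on the control array. Of the spots of negative probes, 22.7% met the call on the control array and 14.25% on the I/R array. It was met by the control array alone for 59 strands, by the I/R array alone for 10 and by neither for 350. These are 8.54%, 1.45% and 50.7% of the strands, where 7.12%, 1.91% and 28.6% of all probes fell. The lowest normalized signal that passed was 12.5 on the control array and 17.5 on the I/R array, so a strand between these limits could pass on the control array alone with no change in signal. With 1 limit for both arrays, added after the data were seen, 268 strands were above it on both.

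The levels of most strands were close to background, and a few were bright. On the quantile-normalized scale, on which both arrays have the same distribution over all probes, the median strand was at 11.2 on the control array and 10.8 on the I/R array, while the median of all probes was 41.0. The upper quartile of the strands was 52.7 on the control array and 43.2 on the I/R array, against 232 for all probes. Plus and minus strands had similar medians on the control array, at 10.7 and 12.1. The 95th percentile of the negative probes, on the processed scale, was 57.5 on the control array and 52.8 on the I/R array. It was taken over 1200 spots, which are copies of only 20 sequences, and their median was at the floor. The highest median of a single negative probe was 67.4 on the control array and 59.5 on the I/R array, so few sequences set this limit. Brighter than that were 159 strands on the former and 154 on the latter. No strand was saturated and none was marked as an outlier spot.

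**Figure D1:**
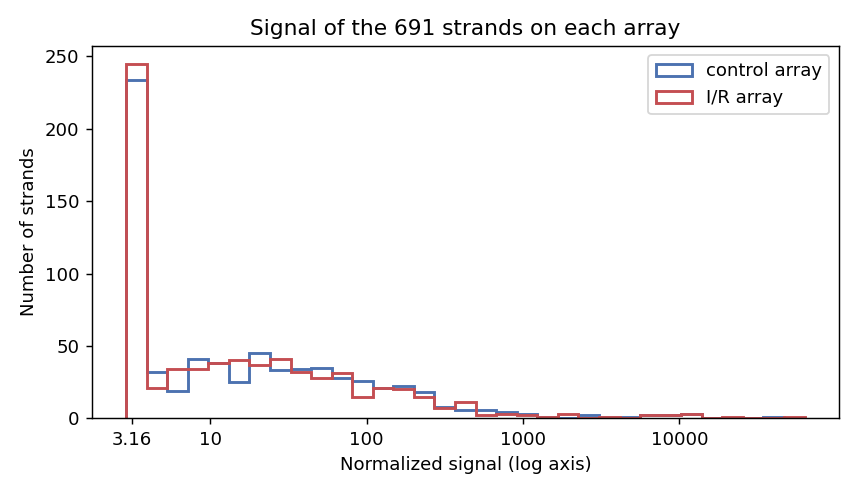
Number of lincRNA strands (vertical axis) by normalized signal (horizontal axis, logarithmic, arbitrary units) on the control array and the I/R array, 691 strands on each. Both distributions pile up at the floor of the scale, 2.95, and the brightest strand, mouselincRNA1188-, is at 39547 on the control array.

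The signal of a probe also depends on how its sequence binds, so the order of brightness is an order of signals and not of RNA amounts. The brightest strand on both arrays was mouselincRNA1188-. Its normalized signal was 39547 on the control array and 48188 on the I/R array, a ratio of 1.22 with a spot interval of 0.924 to 1.61. Here and below, a spot interval spans 1.96 standard errors above and below a log2 ratio, taken from the scanner's own error for the spot on both arrays, and it covers neither the mouse nor the array. The plus strand of the same locus was at 3.32 and 2.95, not well above background on either array.

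The next brightest strand on the control array was mouselincRNA0077+, at 13709 on the control array and 12549 on the I/R array. mouselincRNA0161- was the third, at 11760 and 21877. Its ratio of 1.86 (1.41 to 2.45) was the one among the 8 brightest strands that passed the threshold of 1.5. The other five, mouselincRNA1606-, mouselincRNA0305-, mouselincRNA1267-, mouselincRNA0453+ and mouselincRNA0158-, had ratios between 0.866 and 1.38.

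Of the 8 brightest strands, 6 were minus strands, and for 6 of the 8 the opposite strand was not well above background on either array, as were 50.7% of all strands. The exceptions among the 8 were mouselincRNA0077-, at 188 on the control array and 137 on the I/R array, as well as mouselincRNA0453-, at 25.3 and 18.5. A strand with a mean signal from 1000 upward was found at 13 loci, 6 on the plus and 7 on the minus strand. The opposite strand was well above background on both arrays at 5 of these loci and on neither at 8. Among all 272 strands well above background on both arrays, 270 had a probe to the opposite strand. Of those opposite strands, 118 (43.7%) passed the call on both arrays too, against 39.4% of all strands.

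**Figure D2:**
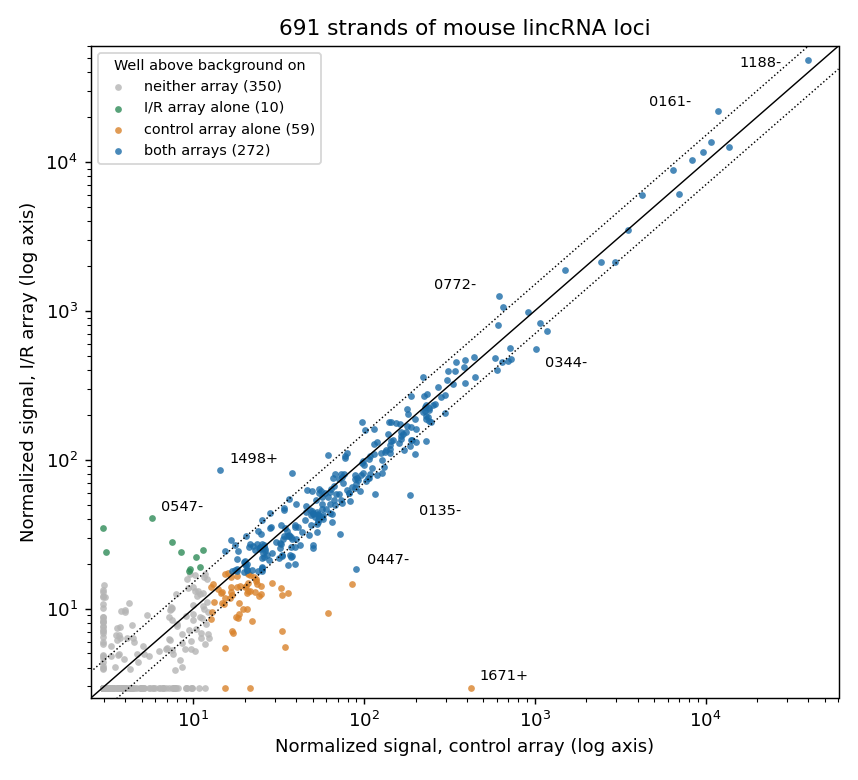
Normalized signal of each of the 691 lincRNA strands on the control array (horizontal axis) and on the I/R array (vertical axis), both logarithmic and in arbitrary units, coloured by the array or arrays on which the strand was well above background. The solid line is equality and the dotted lines are ratios of 1.5 and 0.7. The 272 strands in blue lie along equality over the whole range, while mouselincRNA1671+ sits on the floor of the I/R array and mouselincRNA1498+ lies furthest above the upper line among the blue points.

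Strand use was described for the 340 loci with a probe to each strand, counting a strand as in use where it was well above background. On the control array both strands were in use at 78 loci (22.9%), the plus strand alone at 80 (23.5%), the minus strand alone at 93 (27.4%) and neither at 89 (26.2%). Thus 251 loci (73.8%) had a strand in use, 173 of them a single strand. On the I/R array both strands were in use at 63 loci (18.5%), the plus strand alone at 72 (21.2%), the minus strand alone at 82 (24.1%) and neither at 123 (36.2%). The split between plus and minus was therefore nearly even on both arrays, and the I/R array had more loci with neither strand. These shares rest on the call, which spots of negative probes also met less often on the I/R array (14.25%) than on the control array (22.7%). The part of this in the gap between the arrays was not tested. Counting every detected strand, both strands were in use at 184 loci on the control array and at 145 on the I/R array. Counting strands brighter than the 95th percentile of the negative probes, it was 17 and 19 loci. By the last count, neither strand was in use at 200 loci on the control array and 207 on the I/R array.

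**Figure D3:**
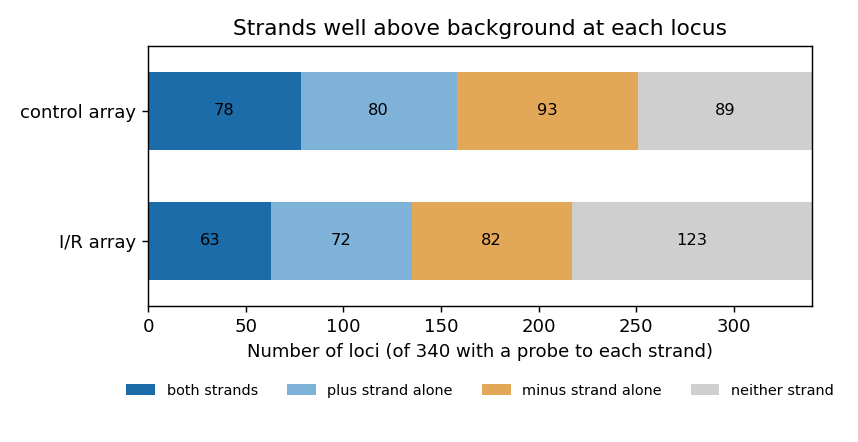
Number of loci (horizontal axis) with both strands, the plus strand alone, the minus strand alone or neither strand well above background, on the control array (upper bar) and the I/R array (lower bar), over the 340 loci with a probe to each strand. The grey part grows from 89 to 123 loci, and the parts for 1 strand stay close in size to each other.

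The class of a locus was the same on both arrays at 279 loci (82.1%). Among the other 61, 37 had a strand in use on the control array and none on the I/R array, and 3 had the reverse. A further 14 went from both strands to 1, and 4 from 1 strand to both. With 1 signal limit for both arrays, neither strand was in use at 103 loci on the control array and at 123 on the I/R array, so the gap was 20 loci in place of 34.

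The strand in use was a different one on each array at 3 loci. At mouselincRNA1139 the plus strand had a normalized signal of 15.4 on the control array and 17.0 on the I/R array, where the limit was higher, so that it missed the call there. Its minus strand was at the floor of 2.95 on the control array and at 34.9 on the I/R array, at least 2.79-fold higher on the I/R array. A bound of this kind sets the signal on the array where the strand was well above background against the lowest signal that passed on the other array, or against the strand's own signal there if that was higher. It takes no account of the spot error, so the words at least refer to this rule alone.

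At mouselincRNA1562 the minus strand was at 16.8 on the control array and 7.04 on the I/R array, while the plus strand was at 11.4 and 24.8, at least 1.99-fold higher on the I/R array. At mouselincRNA1511 the minus strand was at 22.6 and 16.2, at least 1.29-fold lower on the I/R array, and the plus strand was at 10.9 and 19.1, at least 1.53-fold higher. All of these signals lay below the 95th percentile of the negative probes. After normexp background correction, described below, the minus and plus ratios were 0.896 and 1.26 at mouselincRNA1562. At mouselincRNA1511 they were 0.955 and 1.07.

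The change between the arrays was taken as the ratio of the I/R to the control signal, with the thresholds of the study's methods, 1.5 for higher and 0.7 for lower. Among the 422 detected strands, 45 (10.7%) were at or above 1.5, where 14.2% of all detected probes were. At or below 0.7 were 88 strands (20.9%), against 16.3% of all detected probes, and 289 lay between. The median log2 ratio of the strands was -0.17, and that of all detected probes was -0.06. With this normalization the strands had fewer high and more low ratios than the array as a whole. Normexp background correction adds an offset of 50 to every signal and so draws the ratios of dim spots toward 1. After it, 1.66% of the strands were at or above 1.5, against 4.63% of all detected probes. At or below 0.7 were 3.32%, against 4.64%. Since the strands were dimmer than the array as a whole, the offset lowers their shares more, and the 2 groups cannot be compared by these shares. The median log2 ratio was then -0.05 for the strands and -0.02 for all detected probes.

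Among the 272 strands well above background on both arrays, 16 (5.88%) were at or above 1.5, against 11.2% of all such probes, and 43 (15.8%) were at or below 0.7, against 12.5%. The spot interval lay on the same side of 1 for 13 of the 16 and for 39 of the 43. The median log2 ratio was -0.16, against -0.06 for all probes. Most ratios were small, as they were over the array: 266 of the 272 lay within 2-fold, 3 were higher and 3 lower than that. Of all 37211 probes well above background on both arrays, 34594 lay within 2-fold. The mouse probes to human lincRNA loci had nearly the same figures, with 4.70% at or above 1.5, 15.6% at or below 0.7 and a median of -0.16. Probes to lincRNA exons, with 10.5% and 12.2%, were nearer to all probes. Ultraconserved regions had 16.5% at or below 0.7, so a low share of this size was found outside the lincRNA loci too.

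The ratios were also read by level, among strands well above background on both arrays. For mean signals under 50, 8 of 111 strands (7.21%) were at or above 1.5, against 14.5% of all probes, and 20 (18.0%) were at or below 0.7, against 13.5%. The median log2 ratio there was -0.19 for the strands and -0.02 for all probes. From 50 to 200, 4 of 104 strands (3.85%) were high, against 11.7% of all probes, and 16 (15.4%) were low, against 13.0%, with medians of -0.18 and -0.08. From 200 to 1000, 3 of 44 strands (6.82%) were high, against 10.4%, and 7 (15.9%) were low, against 13.0%, with medians of -0.11 and -0.07. From 1000 upward there were 13 strands, too few to set these shares apart: 1 (7.69%) was high, against 7.65% of all probes, and 0 were low, against 10.1%, with medians of 0.29 and -0.04. Plus and minus strands did not stand apart, with medians of -0.18 over 130 plus strands and -0.13 over 142 minus strands.

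Position on the array moved with some of these ratios. For each strand, the 25 nearest other spots with a signal of at least 30 were used to estimate a local shift, their median log2 ratio relative to that of all such spots. The shift lay between -0.08 and 0.07 for the middle 50% of the strands, but it reached -0.79 and 0.44 at the extremes. It was below -0.25 for 24 strands and above 0.25 for 13. With the local shift subtracted, a calculation added after the data were seen, 44 detected strands were at or above 1.5 and 88 at or below 0.7. Of these, 39 and 72 were strands that had passed without it. Among strands well above background, the counts became 14 and 40, of which 12 and 30 had passed before, and the median log2 ratio became -0.09. The part of local position in any single ratio was not tested, and the shift is given beside the strands that follow where it was large.

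The highest ratio among strands well above background on both arrays was that of mouselincRNA1498+, an intergenic transcript that the study lists among its changed LncRNAs. Its normalized signal was 14.4 on the control array and 85.1 on the I/R array, a ratio of 5.91 with a spot interval of 4.21 to 8.29. The control signal was only just above the limit of 12.5, while the I/R signal was above the 95th percentile of the negative probes. Its neighbours on the array were also higher on the I/R array, with a local shift of 0.44, and with that shift subtracted the ratio was 4.36. After normexp the ratio was 1.83. The minus strand of the locus was at 3.85 and 2.95 and passed the call on neither array.

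The next 2 ratios were near 2. mouselincRNA1235- was at 38.0 on the control array and 80.8 on the I/R array, a ratio of 2.13 (1.55 to 2.92). Its plus strand, well above background on both arrays, was at 181 and 202, a ratio of 1.11. mouselincRNA0772- was at 614 on the control array and 1261 on the I/R array, with a ratio of 2.05 (1.56 to 2.71) and a local shift near 0. The plus strand there, at 10.5 and 12.2, did not pass the call.

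mouselincRNA0712- was another bright strand with a high ratio, at 647 on the control array and 1061 on the I/R array, 1.64 (1.24 to 2.17). mouselincRNA1623+ went from 96.7 to 178, a ratio of 1.84 (1.38 to 2.44). The rest of the 10 highest were mouselincRNA0917+, mouselincRNA1619+, mouselincRNA1040- and mouselincRNA1379-, with ratios between 1.61 and 1.75. Of the 10, the spot interval included 1 for mouselincRNA1379- (0.967 to 2.67) and for no other. After normexp, mouselincRNA1235- (1.39), mouselincRNA0917+ (1.42), mouselincRNA1619+ (1.14) and mouselincRNA1379- (1.16) no longer reached 1.5, while mouselincRNA0772- was at 1.98, mouselincRNA0161- at 1.87 and mouselincRNA0712- at 1.58, and mouselincRNA1623+ and mouselincRNA1040- were only just at 1.5.

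The lowest ratio among strands well above background on both arrays was that of mouselincRNA0447-, which the study also lists among its changed LncRNAs. It was at 89.7 on the control array and 18.4 on the I/R array, 4.88-fold lower with a spot interval of 3.06 to 7.80. Its I/R signal was just above the limit of 17.5. The local shift was -0.04, and the strand was 4.74-fold lower with it subtracted. After normexp the ratio was 0.554, where it had been 0.205. The plus strand was at 9.06 and 8.98 and passed the call on neither array.

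mouselincRNA0135- was at 185 on the control array and 58.1 on the I/R array, 3.19-fold lower (2.36 to 4.32), also with a small local shift (-0.03). Both of its signals were above the 95th percentile of the negative probes, and its plus strand was at the floor on both arrays. mouselincRNA0344- was the brightest strand among the 10 lowest ratios, at 1018 on the control array and 552 on the I/R array, 1.84-fold lower (1.40 to 2.43). mouselincRNA0361+ was at 71.8 and 31.6, 2.27-fold lower (1.59 to 3.25).

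Some of the other low ratios lay where neighbouring spots were low as well. mouselincRNA1199+ was at 50.2 on the control array and 25.4 on the I/R array, a ratio of 0.506, and 20 of its 25 neighbours were lower too. Here a neighbour is lower if its log2 ratio is below 0, and the median over all such spots was itself -0.07. With its local shift of -0.45 subtracted the ratio of mouselincRNA1199+ was 0.690. mouselincRNA1106+ was at 117 and 59.2, a ratio of 0.508, which became 0.666 with its shift of -0.39 subtracted. The remaining strands of the 10 were mouselincRNA1244+, mouselincRNA0133+, mouselincRNA0617+ and mouselincRNA0513+, between 1.81-fold and 1.99-fold lower, with local shifts from -0.08 to 0.13. After normexp, the ratio of mouselincRNA0135- was 0.477, where it had been 0.313, and mouselincRNA0344- was at 0.570. By the same correction mouselincRNA1199+ (0.760), mouselincRNA1244+ (0.800), mouselincRNA0133+ (0.842) and mouselincRNA0617+ (0.839) no longer reached 0.7. Of the 20 strands with the highest and lowest ratios, the opposite strand was well above background on both arrays for 8, and 0 of those passed a threshold in the same direction. Those strands are part of the 118 among all 272 that had such an opposite strand, and these 118 make up 59 loci. There too, 0 passed together in the same direction. Whether that count departs from the one for unrelated probes was not tested.

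**Figure D4:**
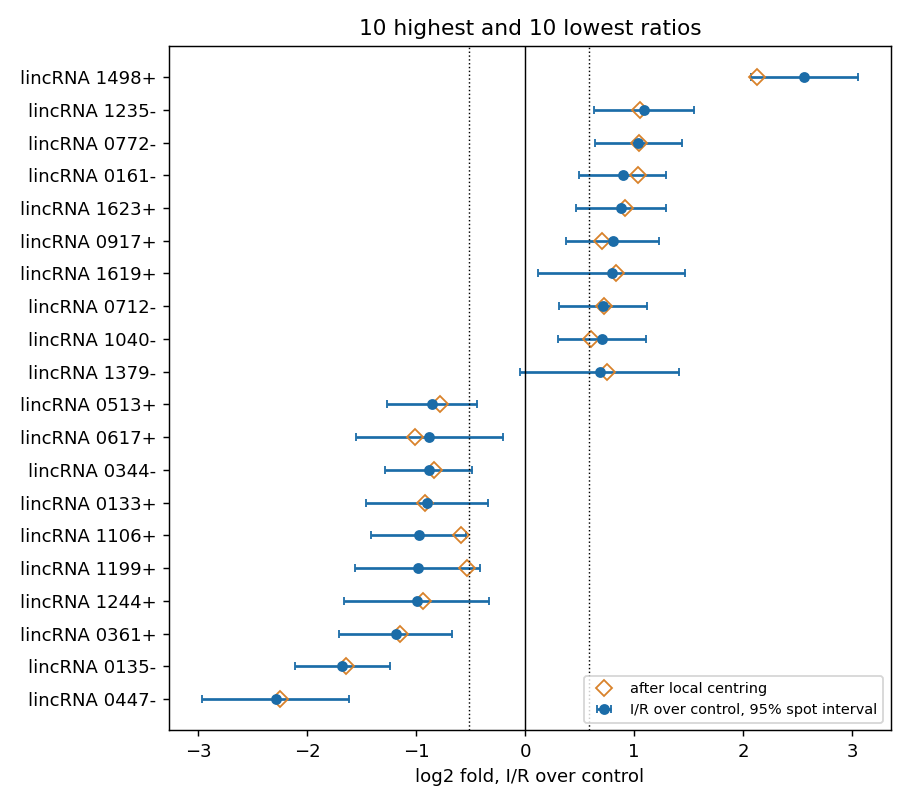
log2 ratio of the I/R to the control signal (horizontal axis) for the 10 strands with the highest and the 10 with the lowest ratios, out of the 272 well above background on both arrays. Points are ratios of 1 array to 1 array with the 95% spot interval, open diamonds are the ratio with the local shift subtracted, and dotted lines mark the thresholds of 1.5 and 0.7. The diamonds stay within the spot intervals and move furthest from the points for mouselincRNA1498+, mouselincRNA1199+ and mouselincRNA1106+.

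Strands that passed the call on 1 array alone have bounds in place of ratios. Among those that passed on the I/R array alone, the highest bound was that of mouselincRNA0547-, at 5.74 on the control array and 40.7 on the I/R array, at least 3.26-fold higher. Its plus strand was nearly the same on both arrays, at 98.1 and 98.2. The other high bounds were mouselincRNA1139- (above), mouselincRNA0448+ at 2.24-fold, mouselincRNA1562+ at 1.99-fold and mouselincRNA0299+ at 1.92-fold. All 5 had I/R signals between 24.0 and 40.7 and positive local shifts, from 0.12 to 0.29, and none of these signals reached the 95th percentile of the negative probes. After normexp the ratios were 1.49 for mouselincRNA0547-, 1.44 for mouselincRNA1139-, 1.25 for mouselincRNA0448+, 1.26 for mouselincRNA1562+ and 1.51 for mouselincRNA0299+.

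Among strands that passed on the control array alone, mouselincRNA1671+ stood apart. It had a normalized signal of 420 on the control array and was at the floor of 2.95 on the I/R array, at least 24.0-fold lower. After normexp its ratio was 0.114. The scanner's median pixel signal, before background subtraction, was 462 on the control array against a local background of 29, and 39 against 35 on the I/R array. The minus strand of the locus was at 91.2 and 75.1, a ratio of 0.823. Around the spot, 11 spots within 1 row and 2 columns were well above background on the control array, and all 11 were lower on the I/R array, with ratios from 0.0106 to 0.770 and a median of 0.504. Because these spots were picked by their call on the control array, the choice itself favours lower ratios. The share of lower spots among all spots picked in that way was not computed. One of the 11, in the next row of the same column, went from a processed signal of 326 to the floor, and mouselincRNA1106+ was another. The local shift of mouselincRNA1671+ was -0.48, and the part of the position in its signal was not tested.

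The next bounds were smaller. mouselincRNA0362+ was at 84.4 on the control array and 14.6 on the I/R array, at least 4.82-fold lower, with a local shift of -0.32. mouselincRNA1301- was at 61.7 and 9.36, at least 3.52-fold lower, and 21 of its 25 neighbours were lower as well, at a shift of -0.79. mouselincRNA1626- was at least 2.05-fold lower with a shift of -0.37. The exception in this set was mouselincRNA0172+, at 34.4 and 5.51, at least 1.96-fold lower with a shift of -0.06. After normexp the ratios were 0.477 for mouselincRNA0362+, 0.536 for mouselincRNA1301-, 0.770 for mouselincRNA1626- and 0.679 for mouselincRNA0172+.

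Strands of the same locus were compared by their ratios, since the signals of different probes cannot be set against each other. At 59 loci both strands were well above background on both arrays. Both ratios were above 1 at 7 loci, both were below 1 at 22, and they were on opposite sides at 30. A threshold was passed by 1 strand at 22 loci, by both in opposite directions at 2 and by both in the same direction at 0, and at 35 loci neither strand passed. Among all probes well above background on both arrays, 11.2% were at or above 1.5 and 12.5% at or below 0.7. For the 272 strands the shares were 5.88% and 15.8%. Whether the locus counts depart from those of unrelated probes was not tested. The size of the difference between the log2 ratios of the strands had a median of 0.43. The spot interval of the difference lay off 0 at 16 loci, and the difference was over 1 at 5. Across the 59 loci the log2 ratios of plus and minus strands had a Pearson correlation of -0.08 and a Spearman correlation of -0.06, which describe these 2 arrays, with all ratios sharing the same libraries. Over the 126 loci with both strands detected, both ratios were above 1 at 18, both below 1 at 50 and on opposite sides at 58. A threshold was passed there by 1 strand at 55 loci and by both in opposite directions at 6. Both strands were at or below 0.7 at 5 of these loci and both at or above 1.5 at 0, and at 60 neither strand passed.

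Among the 59 loci well above background on both strands, mouselincRNA0133 had the widest difference. Its plus strand was at 49.9 on the control array and 26.8 on the I/R array. Its minus strand was at 76.9 and 106. The log2 ratio of the plus strand was thus lower than that of the minus strand, with a difference of -1.37 (-2.07 to -0.67). Both local shifts were small, at 0.02 and -0.07.

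mouselincRNA0917 had the opposite order and passed a threshold on each strand. Its plus strand was at 61.2 on the control array and 107 on the I/R array, a ratio of 1.75, and its minus strand at 52.7 and 36.8, a ratio of 0.698, for a difference of 1.32 (0.67 to 1.98). The minus ratio was just inside the threshold of 0.7.

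mouselincRNA0544 was the other locus that passed on both strands in opposite directions. Its plus strand was at 170 on the control array and 116 on the I/R array, a ratio of 0.683, and its minus strand at 28.3 and 44.0, a ratio of 1.56, for a difference of -1.19 (-1.85 to -0.52). With the local shift of -0.17 subtracted, the plus ratio was 0.770 and no longer passed. After normexp neither of these loci passed on either strand, with ratios of 1.42 and 0.910 at mouselincRNA0917 and of 0.785 and 1.11 at mouselincRNA0544.

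At mouselincRNA0463 the plus ratio was 0.594 and the minus ratio 1.39, a difference of -1.22 (-1.97 to -0.47). At mouselincRNA1040 the plus ratio was 0.749 and the minus ratio 1.63, a difference of -1.12 (-1.75 to -0.49). The minus strand was therefore the one with the higher ratio at 4 of these 5 loci, which were picked for their wide differences. Over the 59 loci the median log2 ratio was -0.13 for plus strands and -0.18 for minus strands.

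**Figure D5:**
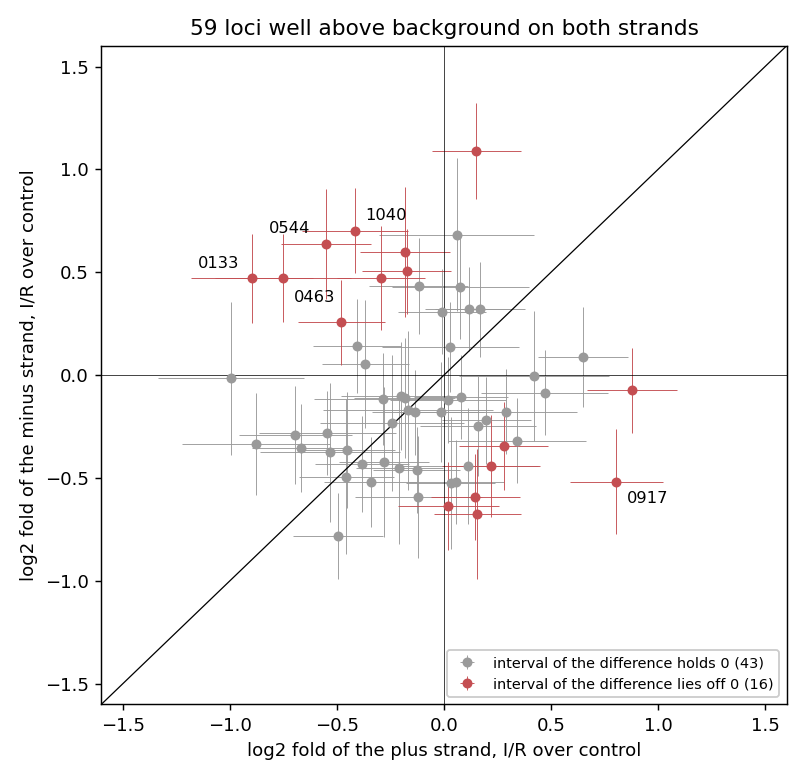
log2 ratio of the I/R to the control signal for the plus strand (horizontal axis) and the minus strand (vertical axis) at the 59 loci with both strands well above background on both arrays. Points are loci with ratios of 1 array to 1 array, bars are 1 standard error of the spot, the diagonal is equality, and red points are the 16 loci whose difference has a spot interval off 0. The points do not follow the diagonal, and 30 of them lie in the upper left and lower right corners.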

How the data were processed

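RNA was freed of rRNA, amplified with random primers into Cy3-labelled cRNA and hybridized to the Arraystar Mouse LncRNA Microarray v2.0. The authors read the images with Agilent Feature Extraction 11.0.1.1 and deposited, for each spot, a background-subtracted processed intensity with its error, the median and background intensities, and flags. The file headers name the mouse build mm9. Normalization here left out control spots, spots flagged as outliers and the 20 probes with negative sequences. The deposited series table equalled the processed intensities at all 62513 spots, so it served as values without normalization. The log2 intensities of 59692 probes were quantile-normalized with limma 3.58.1 in R 4.3.3. The study also used quantile normalization, in GeneSpring, followed by a filter on flags. Other steps used Python 3.11.15, numpy 2.4.6, pandas 2.3.3 and matplotlib 3.10.9. The lowest processed intensity well above background was 12.7 on the control array and 17.3 on the I/R array. With 1 array per condition the precision of a difference is unknown, and no p-value is given.

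Strands were named by these rules: the 10 highest and 10 lowest ratios among strands well above background on both arrays, the 5 highest bounds in each direction, the 8 brightest on the control array, the 5 widest strand differences, every locus that changed strand, and those listed by the study. The members and these lists were chosen with earlier results of these data known. Normexp used the median intensities with an offset of 50. Only the quantile normalization was tested on simulated data, made from the control array with known changes in some probes well above background. The calls, strand classes, bounds, spot intervals, local shifts and normexp were not tested in that way. No member sequence or coordinate was used here.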

Additional observations from a re-analysis of the deposited data

How the results depend on the processing

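No paired analysis was possible because each condition has a single array, and for the same reason no array could be left out. The 422 detected strands became 272 with the stricter call on both arrays, 533 with detection on 1 array at least, and 268 with 1 signal limit. The counts at or above 1.5 and at or below 0.7, 45 and 88, became 7 and 14 after normexp, 16 and 43 with the stricter call, 68 and 135 with no filter, 17 and 21 at 2-fold, and 19 and 50 where the spot interval had to lie on the same side of 1. All 7 and all 14 after normexp were among the 45 and 88, and they are 1.66% and 3.32% of the strands, against 4.63% and 4.64% of all probes. With no filter the shares were 9.84% and 19.5%, against 13.7% and 16.8%. Scaling to the 75th percentile gave 39 and 97 (9.24% and 23.0%, against 13.5% and 17.2% of all probes), cyclic loess 42 and 78 (9.95% and 18.5%, against 15.4% and 14.2%), and no normalization 41 and 95 (9.72% and 22.5%, against 13.7% and 16.8%). The median log2 ratio of all detected probes was -0.08 under the percentile scaling and 0.00 under loess, and that of the strands -0.20 and -0.10. It was -0.02 with no filter. Both strands were in use on the control and I/R arrays at 184 and 145 loci with the detection flag and at 17 and 19 above the negative probes, and neither strand at 25 and 43, and at 200 and 207. Of the 126 loci with both strands detected, 68 had both ratios on the same side of 1, and of the 59 with the stricter call 29 did. Keeping outlier-flagged spots or negative probes, or taking the median of repeated spots, left the 45 and 88 as they were, and keeping outlier-flagged spots also left the detected and strand-use counts as they were. The folds of the 48 named strands kept their direction under percentile scaling, loess, no normalization and local centring, and 47 did under normexp, the exception being mouselincRNA1139+, at a ratio of 0.963 there. Under normexp, however, only 32 of the 48 stayed within their spot interval, while all 48 did under each of the other settings named. Agreement between probes of a strand was not examined because each has 1 probe in 1 spot. Dim signals are a further limit, since 350 of 691 strands were not well above background on either array.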
